A study of Mus musculus with 12 samples.

Results

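The comparison described here sets 4 gastrocnemius samples whose RNA was rich in slow fibre transcripts against 4 whose RNA was poor in them, out of 12 samples in all. For each array, the mean log2 signal of 20 slow fibre genes was taken, and the groups were chosen by this measured mean: the 4 highest and the 4 lowest arrays are called slow-fibre-rich and slow-fibre-poor. Each group holds 2 mice of the P1.2 diet and 2 mice of the P0.3 diet, and the remaining 4 arrays lie between the groups and entered neither. All animals were male C57BL/6J mice, 19 weeks old at delivery and 6.5 months old by the labels, that ate a diet with 1.2% phosphorus (P1.2) or 0.3% phosphorus (P0.3) for 6 weeks. By the methods, the P0.3 diet also held potassium bicarbonate, which evened out the potassium, and somewhat more cornstarch. The labels name no transgene, and the mice were housed in pairs, with the cage mates not named. Total RNA of 1 muscle aliquot per mouse was hybridized to 1 Clariom S mouse array, and where in the muscle each aliquot was taken is not given in the sources used here. The study compared the diets; the split by slow fibre RNA cuts across them and is not a treatment.

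Skeletal muscle fibres are built with different myosin heavy chains. Slow, type I fibres use the product of Myh7 and rely on mitochondrial oxidation, fast type IIa fibres use that of Myh2, and fast types IIx and IIb use those of Myh1 and Myh4 and rely more on glycolysis. The mouse gastrocnemius is a mainly fast muscle in which the fibre types are not spread evenly. Beside the heavy chain, slow fibres have their own forms of light chain, troponin, tropomyosin, calcium pump and calsequestrin, many of which the heart uses as well.

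The mean of the 20 genes was 11.83, 10.99, 11.82 and 11.68 on the 4 slow-fibre-rich arrays (P1.2 replicates 12 and 2, P0.3 replicates 9 and 11) and 8.87, 8.71, 8.70 and 7.94 on the 4 slow-fibre-poor arrays (P1.2 replicates 10 and 4, P0.3 replicates 5 and 7). Sample values below follow this order, on the log2 scale of the authors' normalized signals, on which a difference of 1 is a doubling. The lowest array inside the slow-fibre-rich group, P1.2 replicate 2, stood at 10.99 and the highest outside it, P0.3 replicate 3, at 9.84. At the other edge, P1.2 replicate 10 stood at 8.87 inside the slow-fibre-poor group and P0.3 replicate 1 at 9.31 outside it. The gap between the groups was 2.62 within the P1.2 arrays and 3.43 within the P0.3 arrays. Over all 6 arrays per diet the mean was 9.94 ± 1.23 (SD) for P1.2 and 9.88 ± 1.58 (SD) for P0.3. These values chose the groups and carry no test.

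**Figure D1:**
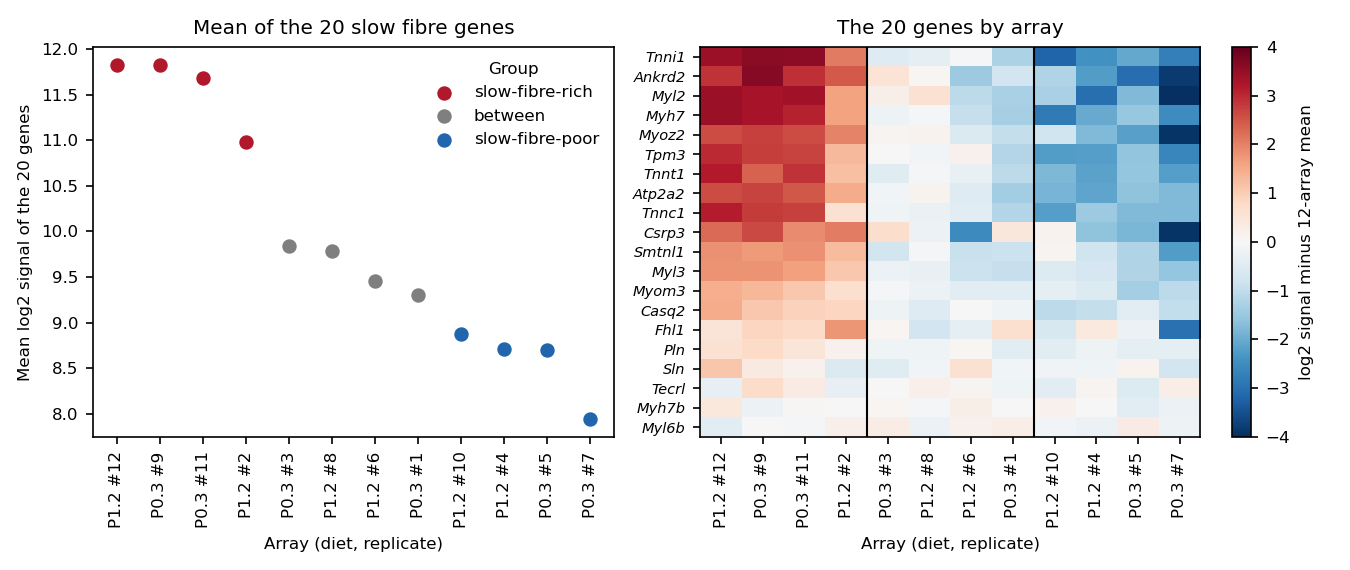
Left, mean log2 signal of the 20 slow fibre genes on each of the 12 arrays, ordered from high to low and coloured by group; right, log2 signal of each gene minus its mean over 12 arrays, with black lines between slow-fibre-rich, between and slow-fibre-poor arrays. The slow-fibre-rich arrays lie at 10.99 to 11.83 and the slow-fibre-poor arrays at 7.94 to 8.87, and 15 of the 20 genes differ by more than 1 log2 unit.

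The 20 genes did not follow the split equally. Tnni1, the slow troponin I, had the largest difference, with 11.84, 10.50, 12.03 and 12.00 on the slow-fibre-rich arrays against 5.23, 6.01, 6.39 and 5.69 on the slow-fibre-poor arrays. Myh7, the slow heavy chain, stood at 14.95, 13.11, 14.80 and 14.58 against 8.66, 9.48, 9.99 and 8.97. Myl2, the slow regulatory light chain, stood at 14.94, 13.13, 14.82 and 14.89 against 10.24, 8.52, 9.76 and 7.46. In all 3 genes the groups were far apart, and P1.2 replicate 2 was the lowest of the slow-fibre-rich arrays by more than 1 log2 unit. The 4 marker genes of slow fibres differed by 5.76 (Tnni1), 5.45 (Myl2), 5.09 (Myh7) and 4.33 (Tnnt1, slow troponin T), so the label fits them, as it must when they helped choose the arrays.

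Of the 20 genes, 10 differed by over 4 log2 units. Beside those named, they were Ankrd2 (5.56), a stretch-responsive ankyrin repeat protein, Myoz2 (4.64), a Z-disc protein of slow fibres, Tpm3 (4.59), the slow tropomyosin, Atp2a2 (4.15), the slow and cardiac calcium pump, Tnnc1 (4.12), the slow troponin C, and Csrp3 (4.01), a LIM protein of the Z-disc. Smtnl1 and Myl3 differed by 2.69 and 2.58, and Myom3, Casq2 and Fhl1 by 1.96, 1.94 and 1.86. Fhl1, a LIM protein, was bright on all 12 arrays and lowest on P0.3 replicate 7, with 18.12, 19.35, 18.45 and 18.36 on the slow-fibre-rich arrays against 16.94, 17.97, 17.34 and 14.61 on the slow-fibre-poor arrays, and its groups did not overlap. The other 5 differed by under 1 log2 unit: Pln (0.86), Sln (0.49), Tecrl (0.25), Myh7b (0.19) and Myl6b (-0.02). Pln and Sln encode phospholamban and sarcolipin, small regulators of the calcium pump. Myl6b, Pln and Tecrl had mean signals under 6.13, called the receptor level here. It is the 95th percentile of 1455 rows for olfactory and vomeronasal receptors, which muscle is not known to use. The groups did not overlap for 16 of the 20 genes, and the median difference was 3.35.

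The 4 samples labelled as muscle in each group carried the RNA of fast skeletal muscle at the top of the measured range. Myh4, the heavy chain of type IIb fibres, the skeletal actin Acta1 and the fast calcium pump Atp2a1 were within 0.05 of the highest signal, 19.93, on all 12 arrays, as were 10 other transcripts, so the arrays could not show a difference in them. The heart markers Myh6, Tnni3, Myl7, Nppa and Mybpc3 all lay below 6.13 in their mean over the 8 arrays. The median signal of an array was between 6.29 and 6.40, and the groups overlapped in it.

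Outside the 20 genes, 22186 transcripts were tested for slow-fibre-rich minus slow-fibre-poor with diet as a covariate, with limma and Benjamini-Hochberg adjustment over all of them. Because measured values picked the arrays, a p here measures how a transcript goes with this split of 8 mice and not the effect of a treatment. At an adjusted p under 0.05, 220 transcripts were higher (0.992% of those tested) and 94 lower (0.424%), 314 in all (1.42%), and these are the transcripts called higher or lower below. At the study's criteria, a fold change over 1.3 and an unadjusted p under 0.05, 1456 were higher (6.56%) and 1180 lower (5.32%). The median difference over all 22186 transcripts was -0.01, and the median standard error was 0.21. Groups that did not overlap were found for 915 transcripts with higher signals in the slow-fibre-rich samples (4.12%) and for 728 with lower ones (3.28%). Of the 220 called higher, 175 differed by more than 2-fold and 44 by more than 4-fold, and of the 94 called lower, 65 and 8. Leaving out single arrays moved these counts to between 95 (without P0.3 replicate 9) and 262 (without P1.2 replicate 2) higher, and to between 27 (without P0.3 replicate 11) and 162 (without P1.2 replicate 2) lower.

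The largest differences outside the 20 genes were in genes of oxidative fuel use. Ldhb, the heart-type lactate dehydrogenase subunit that favours lactate oxidation, had 11.83, 10.55, 12.20 and 11.89 in slow-fibre-rich against 8.43, 7.57, 6.44 and 6.85 in slow-fibre-poor samples, a log2 difference of 4.30 (standard error 0.42, adjusted p = 0.00038). Idh2, the mitochondrial NADP-dependent isocitrate dehydrogenase, had 15.79, 14.66, 15.65 and 15.75 against 12.44, 11.39, 10.81 and 10.50, a difference of 4.17 (standard error 0.37, adjusted p = 0.00021). In both genes all slow-fibre-rich arrays lay over 2 log2 units above the highest slow-fibre-poor array. Lpl, the lipoprotein lipase that frees fatty acids from circulating lipoproteins, had 14.69, 14.15, 14.69 and 14.59 against 11.80, 10.75, 10.09 and 9.75 (3.93, adjusted p = 0.00019). Bdh1, which converts the ketone body 3-hydroxybutyrate, had 10.13, 11.01, 9.75 and 10.37 against 7.29, 7.07, 6.15 and 5.85 (3.72, adjusted p = 5.8e-05), the smallest p of all transcripts tested, and here P1.2 replicate 2 was the highest array.

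Other transcripts among the 10 with the largest higher signals served membrane transport, lipid turnover and the filaments. Atp1b1, a beta subunit of the sodium and potassium pump, was higher by 3.46 (standard error 0.40), and Nceh1, a neutral cholesterol ester hydrolase, by 3.24 (standard error 0.29). Pdlim1, a PDZ and LIM protein that binds alpha-actinin, was higher by 3.12, with 15.17, 14.16, 15.23 and 14.45 in slow-fibre-rich against 11.80, 11.82, 11.46 and 11.43 in slow-fibre-poor samples. Lmod2, a leiomodin that helps set thin filament length in heart and muscle, was higher by 3.05, and Lrrc52, an auxiliary subunit of potassium channels, by 3.21. The transcript cluster named Mir675 in the array annotation spans the gene H19, an imprinted noncoding RNA that hosts this microRNA, so its signal is not that of the mature microRNA. It had 15.88, 13.48, 14.43 and 14.59 in slow-fibre-rich against 12.09, 10.89, 11.35 and 11.43 in slow-fibre-poor samples, a difference of 3.16 (standard error 0.42, adjusted p = 0.0022).

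**Figure D2:**
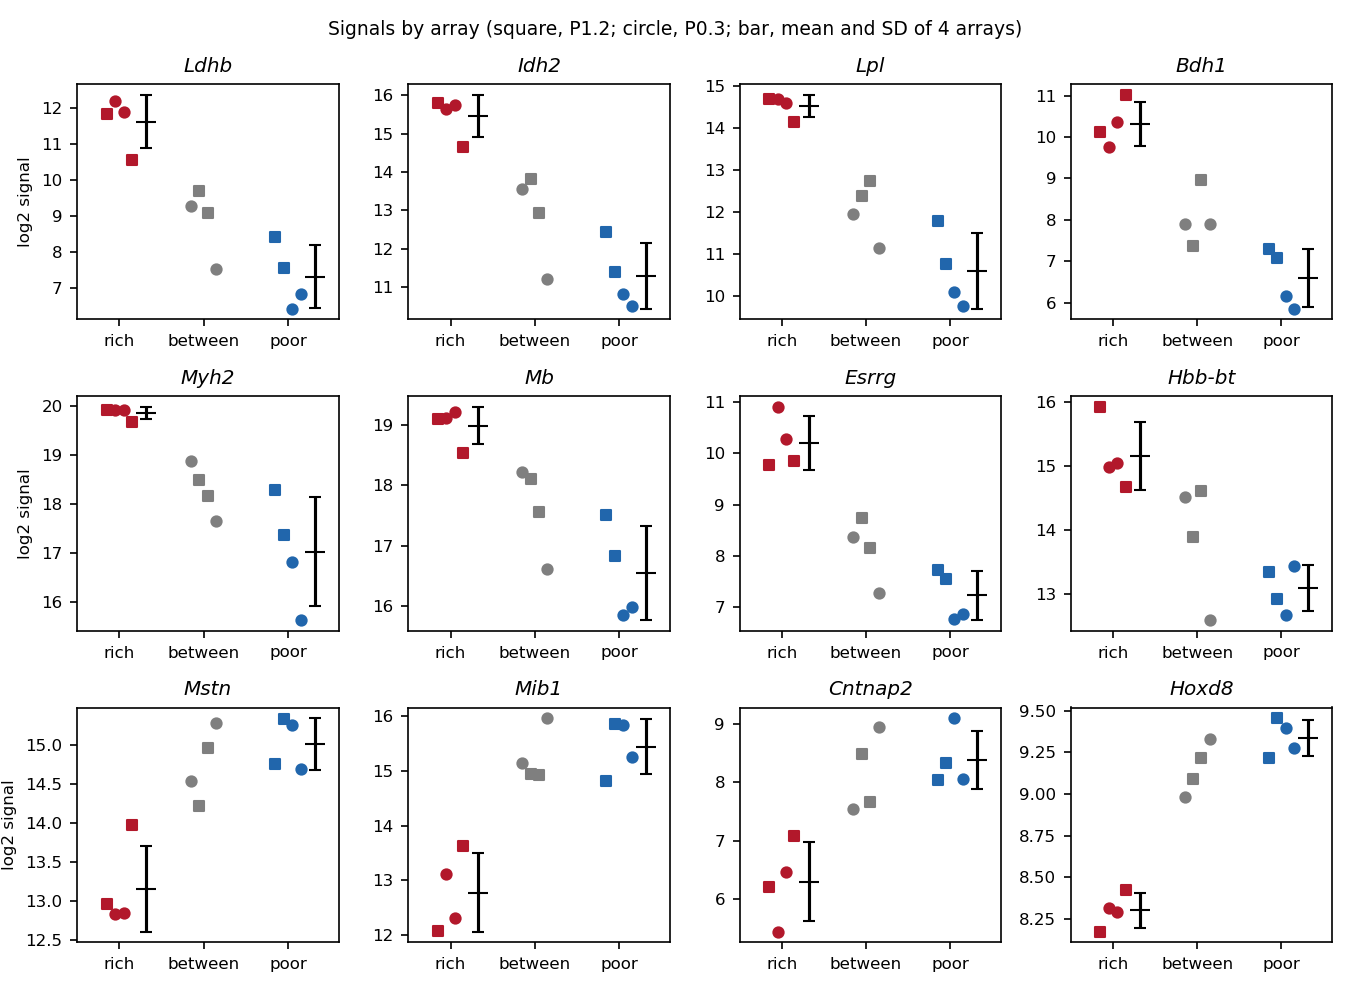
Log2 signal of 12 genes on each array (rich, slow-fibre-rich; between, arrays in neither group; poor, slow-fibre-poor; squares, P1.2; circles, P0.3), with black bars for the mean and SD of the 4 arrays of a group and a scale of its own for each panel. The slow-fibre-rich and slow-fibre-poor arrays do not overlap in any of the 12 genes, and Ldhb, Idh2, Lpl and Bdh1 are higher by 3.72 to 4.30 in the slow-fibre-rich samples.

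Among the fast heavy chains, those of types IIa and IIx went with the slow genes. Myh2 had 19.92, 19.68, 19.93 and 19.93 in slow-fibre-rich against 18.30, 17.38, 16.83 and 15.64 in slow-fibre-poor samples, a difference of 2.83 (standard error 0.37, adjusted p = 0.002). On 3 of the slow-fibre-rich arrays it stood at the top of the scale, at 19.92 to 19.93, and a higher level could not have been shown there. Myh1 had 18.36, 18.35, 18.27 and 17.96 against 16.72, 16.44, 15.55 and 15.59, a difference of 2.16 (standard error 0.21, adjusted p = 0.00031), and lay below the top on all arrays. Myh4 stood at the top in both groups, with a difference of -0.00.

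Of the 17 fast contractile genes, 2 were called higher (Myh1 and Myh2), 1 lower and 14 neither, and 3 had a positive difference. At the study's criteria 2 were higher and 4 lower, beside 6.56% and 5.32% of all transcripts. The groups were apart with lower signals in 8, beside 3.28% of all transcripts. Myh4 is among these 8 with its difference of -0.00, so the count includes members at the top of the scale. The median difference was -0.04 beside -0.01 over all transcripts, but it reads members near the top of the scale. The member called lower was Mylk4, a myosin light chain kinase family member, with 16.59, 16.33, 16.57 and 16.89 in slow-fibre-rich against 17.48, 17.39, 17.76 and 17.34 in slow-fibre-poor samples (-0.89, adjusted p = 0.037), and its call was lost without 7 of the 8 arrays in turn, the exception being P0.3 replicate 7. Of the 17 genes, 11 had a mean signal over 19, where little room for a difference is left, and 8 of these differed by under 0.1. Among members with lower signals that were not called, Actn3, the fast alpha-actinin, differed by -0.60 and Mybpc2, the fast myosin-binding protein C, by -0.63 (adjusted p = 0.18 and 0.16).

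Of 19 further slow or heart-type contractile genes outside the rule, 4 were called higher and 1 lower, beside 0.992% and 0.424% of all transcripts. The median of the 19 was -0.05, and 6 lay below the receptor level. Actn2, the alpha-actinin of all fibre types and the heart, had 18.36, 18.21, 18.52 and 18.40 against 16.81, 16.22, 15.56 and 15.35 (2.39, adjusted p = 0.00066), with P0.3 replicate 7 lowest. Mybpc1, the slow myosin-binding protein C, had 18.22, 18.35, 18.26 and 18.22 against 17.01, 17.16, 16.80 and 14.96 (1.78, adjusted p = 0.027). P0.3 replicate 7 was its lowest array by far, and its call was lost without P1.2 replicate 12, P0.3 replicate 9 or P0.3 replicate 11. Lmod3 was also higher (1.02), and Mybph, myosin-binding protein H, was lower (-1.60, adjusted p = 0.028).

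The list of 29 Z-disc, filament and stretch genes had a median of 0.32. Of its members, 4 were called higher and none lower, beside 0.992% and 0.424% of all transcripts. These were Pdlim1 (above) and 3 genes of the chaperone system at the Z-disc. Hspb7, a small heat shock protein of muscle, had 17.72, 17.85, 17.59 and 17.23 in slow-fibre-rich against 15.95, 15.53, 15.78 and 14.40 in slow-fibre-poor samples (2.18, adjusted p = 0.0016). Cryab, the alpha-B crystallin, had 17.74, 17.56, 17.88 and 17.74 against 16.42, 15.87, 15.92 and 15.78 (1.73, adjusted p = 0.00088). Bag3, their co-chaperone, was higher by 1.28. In the general list of 22 heat shock genes, 2 were called higher, beside 0.992% of all transcripts. These were Hspb1 (1.18) and Dnajb4 (0.84), both with an adjusted p of 0.045. The call of Hspb1 was lost without each array in turn but P1.2 replicate 10, and that of Dnajb4 without each of the 8.

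Calcium handling genes beyond the rule tended to smaller signals in the slow-fibre-rich samples, with a median of -0.20. Of 29 genes, 0 were called higher and 2 lower, beside 0.992% and 0.424% of all transcripts. At the study's criteria 1 was higher and 10 were lower, beside 6.56% and 5.32%. When arrays were left out in turn, 0 to 3 were called lower. Cacng1, the gamma subunit of the muscle L-type calcium channel, had 15.05, 16.10, 15.52 and 15.63 in slow-fibre-rich against 17.02, 16.56, 16.69 and 17.01 in slow-fibre-poor samples (-1.24, adjusted p = 0.023). Calm3, one of the calmodulin genes, had 14.77, 15.32, 15.19 and 14.94 against 16.07, 15.98, 15.90 and 16.09 (-0.96, adjusted p = 0.027). The groups did not overlap in either gene, while both calls were lost without most of the single arrays.

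The 46 regulators of fibre type held 6 genes called higher and 2 called lower (median -0.04), beside 0.992% and 0.424% of all transcripts. Esrrg, the oestrogen-related receptor gamma, a nuclear receptor that drives oxidative genes, had 9.77, 9.85, 10.91 and 10.28 in slow-fibre-rich against 7.73, 7.56, 6.78 and 6.86 in slow-fibre-poor samples (2.97, standard error 0.30, adjusted p = 0.0004). Vgll2, a TEAD cofactor of muscle, had 13.38, 12.93, 13.92 and 12.86 against 11.24, 10.77, 10.13 and 10.43 (2.63, adjusted p = 0.00063). Rcan2, a calcineurin regulator, had 15.22, 14.71, 15.33 and 15.26 against 12.98, 12.24, 11.78 and 12.07 (2.86, adjusted p = 0.00021). None of these 3 genes had overlapping groups, and all 3 stayed called without each array in turn. Rcan1 (1.90), the fatty acid receptor Ppara (1.40) and Ppargc1a (1.02), which encodes the coactivator PGC-1 alpha, were also higher, with adjusted p of 0.046, 0.0061 and 0.021. Without P1.2 replicate 12 the list had 4 genes called higher, so the calls of Rcan1, Ppara and Ppargc1a did not all hold there.

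Mstn and Maf were the regulators called lower. Mstn encodes myostatin, a secreted inhibitor of muscle growth, and had 12.96, 13.97, 12.83 and 12.84 in slow-fibre-rich against 14.75, 15.33, 15.25 and 14.69 in slow-fibre-poor samples (-1.86, standard error 0.26, adjusted p = 0.0031). Its slow-fibre-rich arrays all lay below the slow-fibre-poor ones, with P1.2 replicate 2 nearest to them. Maf, of the large Maf factors tied to type IIb fibres in mice, differed by -0.93 (adjusted p = 0.044). Mstn kept its call without each array in turn, while the number of regulators called lower fell to as few as 1.

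Promoter sequences are shown for 9 genes that moved with the split and that carry a match to the binding motif of MEF2, a factor of muscle genes that is tied to slow fibres, or to AAGGTCA, the core bound by oestrogen-related receptors such as that of Esrrg. They were chosen for holding a match, on either strand, in the 250 bases before the RefSeq start, and capitals mark it. Myoz2 and Tpm3 belong to the 20 genes, Esrrg, Myh1, Pank1, Acadm, Atp5g3 and Got1 were called higher, and Mylk4 was called lower. Coordinates are those of GRCm38.p6, and each sequence runs 5′ to 3′ on the strand of the gene.
Myoz2 (chr3:123034988-123035237, minus strand): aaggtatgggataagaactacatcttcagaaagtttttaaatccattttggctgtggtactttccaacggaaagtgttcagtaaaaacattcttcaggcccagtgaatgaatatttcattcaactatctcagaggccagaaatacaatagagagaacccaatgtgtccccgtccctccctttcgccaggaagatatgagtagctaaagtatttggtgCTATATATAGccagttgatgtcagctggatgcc
Tpm3 (chr3:90072401-90072650, plus strand): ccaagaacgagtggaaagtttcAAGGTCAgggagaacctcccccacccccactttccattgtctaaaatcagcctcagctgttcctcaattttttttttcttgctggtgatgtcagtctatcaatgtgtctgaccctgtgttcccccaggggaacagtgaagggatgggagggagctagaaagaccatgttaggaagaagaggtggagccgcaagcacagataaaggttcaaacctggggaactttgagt
Esrrg (chr1:187608756-187609005, plus strand): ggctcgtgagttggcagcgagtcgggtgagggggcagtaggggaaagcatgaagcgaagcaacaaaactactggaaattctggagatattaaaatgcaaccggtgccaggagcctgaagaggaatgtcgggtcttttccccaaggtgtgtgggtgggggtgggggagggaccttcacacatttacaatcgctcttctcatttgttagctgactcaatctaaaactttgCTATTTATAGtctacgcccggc
Myh1 (chr11:67199852-67200101, plus strand): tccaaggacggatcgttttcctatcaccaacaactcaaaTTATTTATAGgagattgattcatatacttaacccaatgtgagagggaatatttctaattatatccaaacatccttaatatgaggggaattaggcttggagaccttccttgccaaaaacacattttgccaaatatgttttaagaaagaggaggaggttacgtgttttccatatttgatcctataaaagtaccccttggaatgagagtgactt
Pank1 (chr19:34879456-34879705, minus strand): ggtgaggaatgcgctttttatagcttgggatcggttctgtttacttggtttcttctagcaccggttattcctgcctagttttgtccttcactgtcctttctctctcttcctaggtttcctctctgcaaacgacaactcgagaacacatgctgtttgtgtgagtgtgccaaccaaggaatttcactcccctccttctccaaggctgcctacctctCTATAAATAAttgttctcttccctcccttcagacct
Acadm (chr3:153944644-153944893, minus strand): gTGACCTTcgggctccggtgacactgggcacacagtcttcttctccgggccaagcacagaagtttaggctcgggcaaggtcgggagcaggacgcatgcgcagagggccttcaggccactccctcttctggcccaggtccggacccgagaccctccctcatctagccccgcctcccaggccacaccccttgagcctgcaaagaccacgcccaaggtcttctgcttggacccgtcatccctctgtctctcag
Atp5g3 (chr2:73911327-73911576, minus strand): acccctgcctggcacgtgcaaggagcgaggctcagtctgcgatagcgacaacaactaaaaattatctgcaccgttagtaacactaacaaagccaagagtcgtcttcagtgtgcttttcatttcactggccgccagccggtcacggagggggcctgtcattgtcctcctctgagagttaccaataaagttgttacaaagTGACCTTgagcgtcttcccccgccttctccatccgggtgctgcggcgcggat
Got1 (chr19:43524606-43524855, minus strand): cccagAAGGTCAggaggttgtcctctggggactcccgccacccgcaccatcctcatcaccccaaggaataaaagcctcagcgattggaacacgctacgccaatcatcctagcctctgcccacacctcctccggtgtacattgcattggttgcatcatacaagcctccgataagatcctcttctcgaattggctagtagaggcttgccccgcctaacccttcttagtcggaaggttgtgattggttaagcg
Mylk4 (chr13:32783965-32784214, minus strand): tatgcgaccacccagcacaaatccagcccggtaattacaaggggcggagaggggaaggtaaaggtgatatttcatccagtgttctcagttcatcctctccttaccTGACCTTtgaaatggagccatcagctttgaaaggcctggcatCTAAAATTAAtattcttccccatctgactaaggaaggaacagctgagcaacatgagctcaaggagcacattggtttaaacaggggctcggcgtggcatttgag
The match nearest to a start was that of Esrrg, whose last base lay 13 bases before it, and Myoz2 and Pank1 held theirs at 24 and 27 bases. Mylk4 held both motifs. A MEF2 match was found in 1.81% of the 166 genes called higher that had a promoter sequence (3 genes), in 1.43% of the 70 called lower (1 gene) and in 2.69% of the 16002 measured genes outside the rule. AAGGTCA was found in 4.82% (8 genes), 4.29% (3 genes) and 3.59% of the same sets. In the 8170 measured genes with a mean signal above the median, the shares were 2.07% for MEF2 and 2.9% for AAGGTCA. The shares of the called genes were near those of all measured genes. They rest on few genes, and their differences from either set were not tested. Among 18 of the 20 slow fibre genes, 3 held a MEF2 match and 2 held AAGGTCA. A match is a stretch of letters and was not tested for binding, and sequence further upstream was not searched.

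Fatty acid uptake and beta-oxidation was the list with the most called members. Of 42 genes, 23 were called higher, 0 lower and 19 neither, beside 0.992% higher and 0.424% lower of all transcripts. A positive difference was found in 41 of the 42, and the median was 1.00 beside -0.01 over all transcripts. The called members cover many steps of the route from the capillary to the mitochondrial matrix. Lpl and the fatty acid transporters Cd36 (2.07) and Slc27a1 (1.55) act in uptake, Fabp3 (2.56) binds fatty acids in the cytosol, and Acsl1 (1.63) activates them. Cpt2 (0.94) acts in the transfer into the matrix, where the dehydrogenases Acadvl (1.31), Acadl (1.85) and Acadm (0.82), the trifunctional protein Hadha (1.17) and Hadhb (1.25), and the thiolase Acaa2 (2.34) shorten the chains. The ketone body enzymes Bdh1 and Oxct1 (1.43) were called with them.

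Storage and release of fat stood in the same list. Dgat2, which makes triacylglycerol, had 10.47, 9.77, 10.35 and 10.66 in slow-fibre-rich against 8.26, 7.26, 7.30 and 7.70 in slow-fibre-poor samples (2.68, adjusted p = 0.00038). Pnpla2, the triglyceride lipase, was higher by 1.05. The mean of the 42 genes ran from 11.84 to 12.04 on the slow-fibre-rich arrays, from 10.88 to 11.43 on the arrays between and from 10.63 to 11.08 on the slow-fibre-poor arrays, so the slow-fibre-rich arrays stood clear of all others. The number called higher was between 13 (without P0.3 replicate 9) and 23 when arrays were left out in turn. Of 6 adipocyte markers, 0 were called, 5 had a positive difference (median 0.25) and 3 lay below the receptor level. Their mean was 6.75, 6.87, 5.35 and 6.89 on the slow-fibre-rich arrays P1.2 replicate 12, P0.3 replicate 9, P0.3 replicate 11 and P1.2 replicate 2, against 5.73 to 6.34 on the slow-fibre-poor arrays, so P0.3 replicate 11 alone lay below all slow-fibre-poor arrays. The differences were 0.94 in Cfd, 0.63 in Retn and 0.34 in Adipoq, and the part of fat cells in the results was not tested.

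The median of the 34 genes of the citric acid cycle and pyruvate entry was 0.55. Of these, 10 were called higher and 0 lower, beside 0.992% and 0.424% of all transcripts. Beside Idh2, these included Got1, the cytosolic aspartate aminotransferase of the malate-aspartate shuttle, with 16.32, 16.04, 16.10 and 16.04 in slow-fibre-rich against 14.96, 14.46, 14.36 and 13.71 in slow-fibre-poor samples (1.75, adjusted p = 0.0018). Sdhb, the iron-sulphur subunit of succinate dehydrogenase, had 15.52, 15.16, 15.42 and 15.79 against 14.36, 13.71, 13.46 and 14.00 (1.59, adjusted p = 0.0043). Mdh1 (1.33) and Got2 (0.88) belong to the same shuttle as Got1. Pdk4 (2.06) and Pdk1 (1.04), kinases that switch off pyruvate dehydrogenase, rose as well, while Idh2 had by far the largest difference of the list. The number called higher was 4 without P1.2 replicate 12.

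The respiratory chain differed in a smaller but even way. Of 83 subunits of complexes I, III and IV and of ATP synthase, 81 had a positive difference, with a median of 0.64. Of the 83, 11 were called higher and 0 lower, beside 0.992% and 0.424% of all transcripts. At the study's criteria 56 were higher, beside 6.56% of all transcripts. In complex I, 5 of 38 were called (median 0.67), among them Ndufa11, with 12.55, 12.06, 12.60 and 12.66 in slow-fibre-rich against 11.65, 10.89, 10.95 and 11.22 in slow-fibre-poor samples (1.29, adjusted p = 0.013), and Ndufa9 (1.02). In complex III, 2 of 9 were called (median 0.80), Cyc1 (1.09) and Uqcrfs1 (0.88). In complex IV, 1 of 18 was called (median 0.61): Cox7a1, the heart and muscle form of subunit 7a, had 15.19, 14.45, 15.15 and 15.09 against 13.95, 13.16, 13.00 and 13.68 (1.52, adjusted p = 0.01). In ATP synthase, 3 of 18 were called (median 0.52), led by Atp5g3, a subunit c gene, with 16.28, 16.01, 16.38 and 16.43 against 15.35, 15.01, 14.68 and 15.08 (1.24, adjusted p = 0.0085). The groups did not overlap in Ndufa11, Cox7a1 or Atp5g3, and each of these calls was lost without P0.3 replicate 9. With each array left out in turn, Ndufa11 was lost in 5 fits, Cox7a1 in 2 and Atp5g3 in 1. Ndufa9 and Cyc1 were each lost in 6 such fits and Uqcrfs1 in 7. Without single arrays the called members fell to as few as 0 in each of the 4 complexes.

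The proteins that make mitochondrial and cytosolic ribosomes gave smaller values. Of 75 mitochondrial ribosomal proteins, 1 was called higher, a share near the 0.992% of all transcripts, and the median was 0.23. It was Mrpl14 (1.43), with groups that overlapped and a call lost without 6 of the 8 arrays in turn. Of the 75, 67 had a positive difference. At the study's criteria 9 of them were higher and 0 lower, beside 6.56% and 5.32% of all transcripts. Of 81 cytosolic ribosomal proteins, 0 were called and the median was 0.14. At the study's criteria 1 was higher and 2 were lower, beside 6.56% and 5.32% of all transcripts. Of 44 collagen genes, 21 lay below the receptor level and 0 were called (median 0.09). At the study's criteria 3 were higher, a share near the 6.56% of all transcripts. Col3a1 and Col1a1 were brightest on P1.2 replicate 12.

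**Figure D3:**
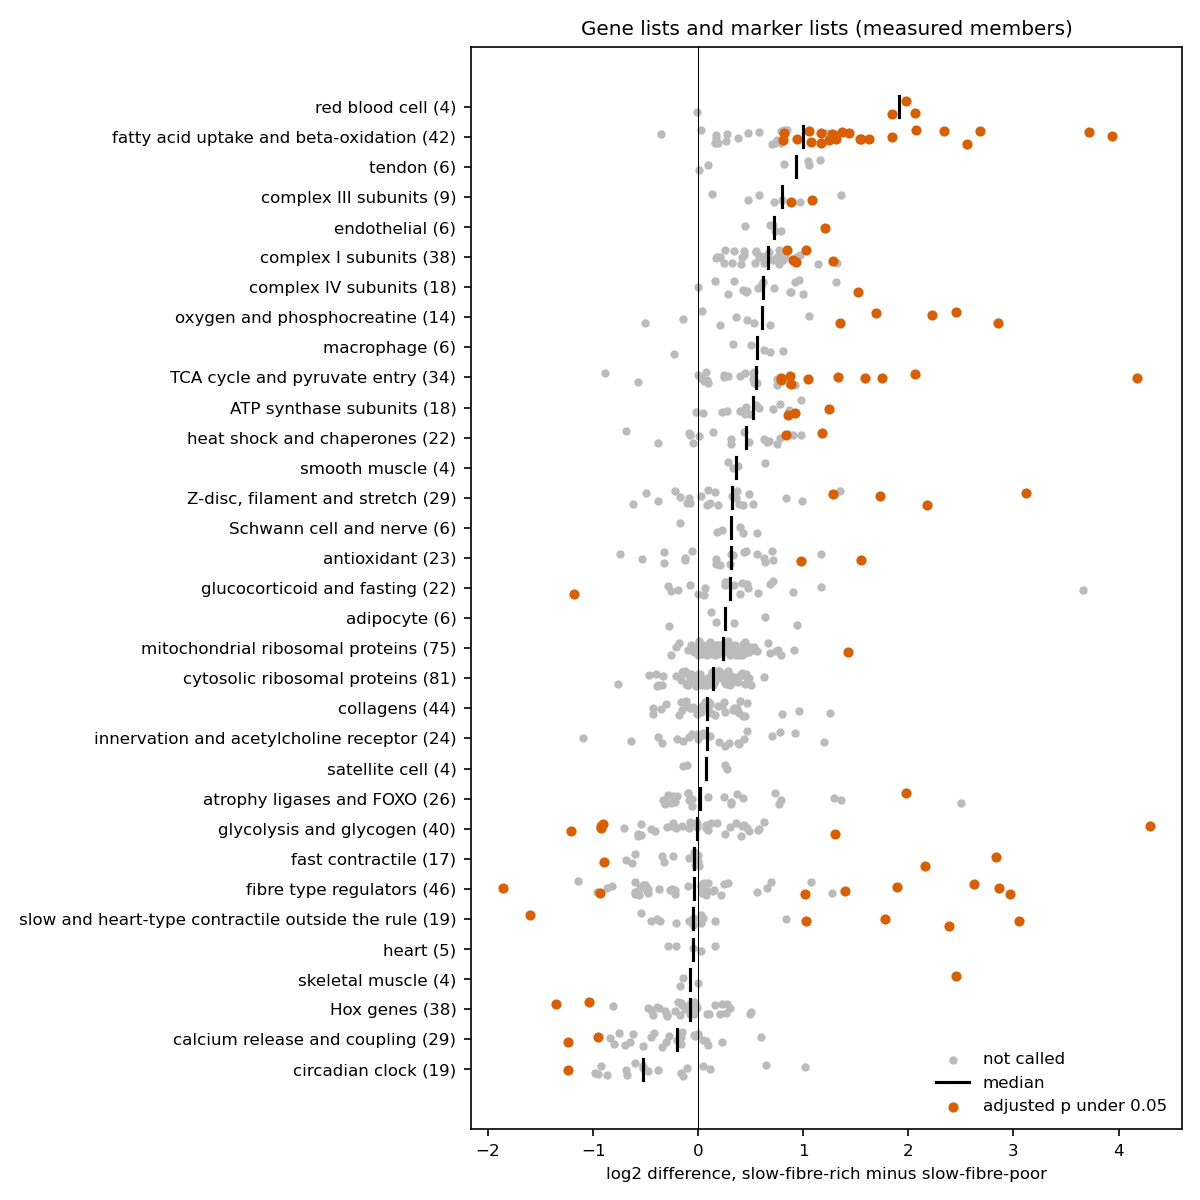
Log2 difference, slow-fibre-rich minus slow-fibre-poor, of each measured member of 33 gene and marker lists (number measured in parentheses), with orange points for members at an adjusted p under 0.05, grey points for the others and a black line for the median. Fatty acid uptake and beta-oxidation has 23 called members and a median of 1.00, while fast contractile, glycolysis and fibre type regulator lists have medians within 0.05 of 0 with called members on both sides.

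Oxygen supply and phosphocreatine genes were called in 5 of 14 cases, all higher (median 0.61), beside 0.992% of all transcripts. Mb, myoglobin, had 19.10, 18.53, 19.12 and 19.23 in slow-fibre-rich against 17.52, 16.83, 15.85 and 15.98 in slow-fibre-poor samples (2.45, adjusted p = 0.0018). Ckmt2, the sarcomeric mitochondrial creatine kinase, had 15.39, 14.95, 15.41 and 15.62 against 13.35, 13.30, 12.73 and 13.08 (2.23, adjusted p = 0.00034). Egln3, a prolyl hydroxylase of the hypoxia-inducible factors, had 12.39, 12.06, 12.73 and 11.64 against 10.08, 10.44, 9.34 and 7.56 (2.85, adjusted p = 0.0054). The groups were apart in all 3, with P0.3 replicate 7 far below the rest in Egln3. Epas1, which encodes the factor HIF-2 alpha, and Vegfa, the vascular growth factor, were higher by 1.69 and 1.35. Mb, Ckmt2 and Egln3 kept their calls without each array in turn, but the list had only 3 called higher without P0.3 replicate 9.

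Markers of vessels and blood moved with the same arrays. All 6 endothelial markers had a positive difference (median 0.72). Of them, 1 was called higher and 5 were higher at the study's criteria, beside 0.992% and 6.56% of all transcripts. The mean of the 6 markers ran from 9.80 to 10.18 on slow-fibre-rich arrays against 9.09 to 9.44 on slow-fibre-poor arrays. Kdr, the main receptor of vascular growth factor, had 10.92, 10.81, 11.56 and 11.31 against 10.22, 9.69, 9.80 and 10.07 (1.21, adjusted p = 0.012), and this call was lost without P0.3 replicate 9. Of 4 red blood cell markers, 3 were called: Hbb-bt had 15.93, 14.68, 14.98 and 15.04 in slow-fibre-rich against 13.34, 12.92, 12.67 and 13.44 in slow-fibre-poor samples (2.07, adjusted p = 0.0022), and Hbb-bs and Hba-a1 were higher by 1.98 and 1.85. The globin genes have near-identical copies, and their probes may not tell them apart. The fourth marker, Alas2, the erythroid enzyme of haem synthesis, differed by -0.01. The part of blood and vessel content in the other differences was not tested, and in whole tissue more cells of a type and more RNA per cell cannot be told apart.

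Other cell type markers passed the adjusted threshold in no case. The median difference was 0.93 for 6 tendon markers, of which 2 lay below the receptor level and 2 passed the study's criteria, and their mean ran from 7.82 to 9.54 on slow-fibre-rich arrays against 7.53 to 8.08 on slow-fibre-poor arrays, with overlap. For 6 macrophage markers the median was 0.56, with 3 at the study's criteria and means of 6.91 to 7.82 against 6.44 to 7.02. Schwann cell and nerve markers (median 0.31, 5 of 6 below the receptor level), satellite cell markers (0.07, 3 of 4 below) and smooth muscle markers (0.35, 1 of 4 below) had 0 called. Thbs4, Comp and Cd68 were brightest on P1.2 replicate 12, and the part of these cells in the results was not tested.

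Glycolysis and glycogen genes moved in both directions, with a median of -0.02. Of 40, 2 were called higher and 4 lower, beside 0.992% and 0.424% of all transcripts. When arrays were left out in turn, 1 (without P0.3 replicate 9) to 2 were called higher and 0 to 2 lower. Ldhb and Slc16a1, the lactate transporter of oxidative fibres (adjusted p = 0.024), were the members called higher. Gpd2, the mitochondrial glycerol-3-phosphate dehydrogenase, had 13.60, 13.64, 13.46 and 13.76 in slow-fibre-rich against 14.74, 14.32, 14.48 and 14.64 in slow-fibre-poor samples (-0.93, adjusted p = 0.027). The call of Gpd2 was lost without each array but P1.2 replicates 2 and 4 (highest adjusted p 0.124), and that of Slc16a1 without P0.3 replicates 9, 11, 5 and 7 and P1.2 replicate 10 (highest adjusted p 0.095). Pfkfb3 (-1.21), which makes the activator of phosphofructokinase, Fbp2 (-0.93), the muscle fructose bisphosphatase, and Phka1 (-0.90), the muscle phosphorylase kinase subunit, were the others called lower. Pygm, the muscle glycogen phosphorylase, was at that upper limit on all 12 arrays and could not be compared.

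The largest lower signals in slow-fibre-rich samples belonged to genes of varied roles. Mib1, a ubiquitin ligase that acts on Notch ligands, had 12.06, 13.62, 13.10 and 12.30 in slow-fibre-rich against 14.81, 15.87, 15.83 and 15.26 in slow-fibre-poor samples (-2.67, standard error 0.35, adjusted p = 0.0021). Enox2, a cell surface oxidase, had 10.62, 11.04, 10.82 and 10.24 against 12.81, 12.32, 12.75 and 13.07 (-2.06, adjusted p = 0.00081). Rasd2, a small GTPase, had 8.77, 8.79, 8.56 and 8.86 against 11.06, 10.22, 11.57 and 10.40 (-2.07, adjusted p = 0.0022). These 3 genes and Cntnap2, a cell adhesion protein of the neurexin family (-2.08), showed no overlap of the groups and kept their calls without each array in turn.

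Of the same 10 genes, the calls of Htra4 (-2.52), a serine protease, and Map3k7cl (-2.29) were lost without 3 and 2 of the arrays in turn. Those of the cadherin gene Cdh4 (-2.31) and of Gm4841 (-1.87) were each lost without 6 of the arrays, and that of Ostn (-2.02) without 7. Ostn encodes osteocrin, a secreted muscle and bone peptide, and had 12.97, 13.67, 13.79 and 13.96 against 15.17, 16.50, 16.51 and 14.28 (adjusted p = 0.044). Its groups did not overlap, but P0.3 replicate 7 lay close to the slow-fibre-rich arrays, and its call held without that array alone.

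Hox genes, which mark position along the body and limb, were looked at as a list of 38, of which 19 lay below the receptor level. None was called higher and 2 genes of the Hoxd cluster were called lower (median -0.08), beside 0.992% and 0.424% of all transcripts. Hoxd8 had 8.17, 8.42, 8.31 and 8.29 in slow-fibre-rich against 9.22, 9.46, 9.40 and 9.28 in slow-fibre-poor samples, a difference of -1.04 (standard error 0.17, adjusted p = 0.0097) and an SD of 0.10 in the slow-fibre-rich and 0.11 in the slow-fibre-poor samples (n = 4 each). Hoxd10 had 6.61, 7.41, 6.33 and 6.46 against 7.62, 8.09, 8.49 and 8.01 (-1.35, adjusted p = 0.027), and Hoxd9 differed by -0.81 with an adjusted p of 0.18. Hoxd8 stayed called without each array in turn, with a highest adjusted p of 0.049, and Hoxd10 was lost without 6 of the 8.

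Clock, hormone and wasting genes gave single calls. Of 19 circadian clock genes, 1 was called lower and 6 passed the study's criteria with lower signals, beside 0.424% and 5.32% of all transcripts. The 19 genes had the lowest median of all lists, -0.52. Rora, a nuclear receptor of the clock, had 12.58, 12.94, 12.74 and 12.60 in slow-fibre-rich against 13.66, 13.81, 14.47 and 13.88 in slow-fibre-poor samples (-1.24, adjusted p = 0.01), and was lost without P0.3 replicate 9. The hours at which the mice were killed are not given per sample in the sources used here, so their part was not tested. Of 22 glucocorticoid and fasting genes, Igfbp5, an insulin-like growth factor binding protein, was called lower (-1.19, adjusted p = 0.02), a call lost without P0.3 replicate 11, 5 or 7 (highest adjusted p 0.074). Nr4a3, an activity-induced nuclear receptor, had 13.19, 8.15, 12.01 and 11.31 against 8.76, 7.24, 7.06 and 6.96. Its difference of 3.66 had an adjusted p of 0.051, and P1.2 replicate 2 lay inside the range of the slow-fibre-poor arrays.

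Of 26 genes of atrophy ligases and their FOXO program, Mt1 was called higher. This metallothionein had 16.37, 14.37, 14.41 and 14.39 in slow-fibre-rich against 12.88, 12.67, 13.06 and 13.05 in slow-fibre-poor samples (1.97, adjusted p = 0.023), and P1.2 replicate 12 stood far above the other slow-fibre-rich arrays. The call was lost without P0.3 replicate 9, P1.2 replicate 10 or P1.2 replicate 4 (highest adjusted p 0.081). Of 23 antioxidant genes, Sod3, the extracellular superoxide dismutase (1.54, adjusted p = 0.0043), and Prdx2, a peroxiredoxin (0.98, adjusted p = 0.037), were called higher. Sod3 kept its call without each array in turn, while that of Prdx2 was lost without each but P1.2 replicates 2 and 10 (highest adjusted p 0.152). Of 24 genes of innervation and the acetylcholine receptor, 0 were called, with Musk, the receptor kinase of the synapse, nearest at -1.10 (adjusted p = 0.065).

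The split was also taken within each diet, in separate mice. Within the P1.2 arrays and within the P0.3 arrays, 2 against 2 each, all 220 transcripts called higher and all 94 called lower had the same sign in both, beside 59.5% of all 22186 transcripts. The call used the arrays of both diets, so this follows largely from it. Idh2 differed by 3.31 within P1.2 and by 5.04 within P0.3, and Ldhb by 3.19 and 5.41. The values of both diets were close for Mir675 (3.19 and 3.12) and Hoxd8 (-1.04 and -1.03). Tested in limma as an interaction of split and diet, no transcript passed an adjusted p of 0.05, and 681 had an unadjusted p under 0.05. Among those 681 of 22186 were 33 of the 220 transcripts called higher, a larger share, and 2 of the 94 called lower. The 33 included Ldhb and Idh2, with an unadjusted interaction p of 0.0029 and 0.012 in limma. Within the P0.3 arrays alone 89 transcripts were called higher and 22 lower, and within the P1.2 arrays alone 0 and 0, where 803 and 429 passed the study's criteria.

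**Figure D4:**
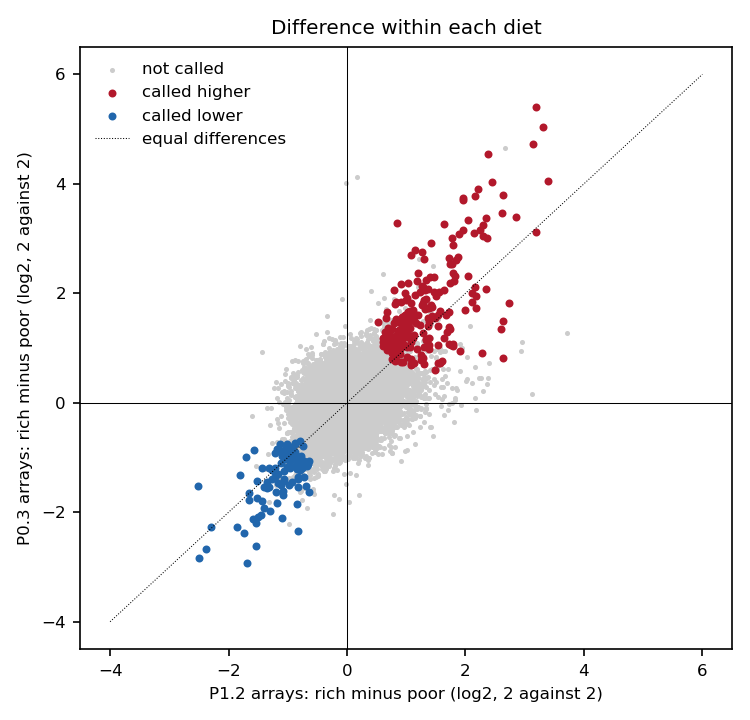
Log2 difference of each transcript outside the 20 genes, slow-fibre-rich minus slow-fibre-poor, within the P1.2 arrays (x axis, 2 against 2) and within the P0.3 arrays (y axis, 2 against 2), with called transcripts coloured and a dotted line of equal differences. The 220 called higher lie in the upper right and the 94 called lower in the lower left.

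The 4 arrays between the groups were not used in the fit. Of the P0.3 arrays among them, replicate 3 exceeded replicate 1 in the mean of the 20 genes by 0.54. There the direction of the call was shared by 160 of 220 and by 78 of 94 transcripts, while 53.0% of all transcripts were higher in replicate 3. Between the P1.2 arrays, replicate 8 exceeded replicate 6 by 0.33, and the direction was shared by 95 of 220 and by 46 of 94, with 50.0% of all transcripts higher in replicate 8. Each of these sets 1 array against 1 array, so they describe these pairs of mice and are no test. For single genes, Ldhb stood at 9.70, 9.08, 9.27 and 7.53 on P1.2 replicates 8 and 6 and P0.3 replicates 3 and 1, and Mb at 18.11, 17.55, 18.22 and 16.62, with P0.3 replicate 1 lowest in both.

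Within the groups, the extreme values fell unevenly on the arrays. P1.2 replicate 2 was the lowest of its group in 118 of the 220 transcripts called higher and the highest in 59 of the 94 called lower. P0.3 replicate 7 was the lowest of the slow-fibre-poor arrays in 98 of the 220, and P0.3 replicate 5 was the highest of them in 46 of the 94.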

How the data were processed

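RNA of 12 gastrocnemius aliquots, 6 mice per diet, was measured on 1 array per mouse. The deposited log2 signals are per transcript cluster and were made by the authors with the GCCN-SST-RMA algorithm in Affymetrix Expression Console (version 1.4). They were used without further normalization, which assumes that most RNA is alike between arrays. The table also holds group means, fold changes and p-values of the authors between the diets, which were not used. A second deposited table holds the same log2 values rounded to 2 decimals. The highest signal is 19.93, and 13 transcripts stayed within 0.05 of it on all arrays. An array gives no count of molecules, so the number of arrays limits the precision. RNA quality per sample and the genome build of the array annotation are not given in the sources used here.

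The arrays were ranked by the mean log2 signal of 20 slow fibre genes, 4 against 4. The other 22186 of 22206 transcripts were fitted with limma (version 3.58.1, lmFit and eBayes, in R 4.3.3) on group and diet, with Benjamini-Hochberg adjustment over all 22186. Standard errors are the moderated ones of the fit. A gene with several clusters was taken at the brightest. The fit was also tested on simulated arrays, in which the largest built-in changes were mostly called and smaller ones mostly were not. Figures were drawn with matplotlib 3.10.9 in Python 3.11.15. Promoters are from RefSeq (GRCm38.p6).

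Members and lists (23 gene lists and 10 marker lists) were chosen with earlier results of these data known. The genes named outside the 20 are the 10 higher and 10 lower called transcripts with the largest difference and 1 symbol above the receptor level, Myh1, Myh2 and Myh4, and up to 3 members per list, those of lowest unadjusted p if under 0.05. Other names are list members given after their values were seen. A single gene that the rule also names is not reported here. Alternatives were other normalizations, filters, priors, array weights, tests, choices of arrays and covariates, and leaving out each array.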

Additional observations from a re-analysis of the deposited data

Results flagged for a closer look

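Each gene named by the rules gave a set of 4 arrays in each of the groups. Among 236 such sets, 20 had an array whose gap to the nearest other array was large against the whole range. Large means above Dixon's 95% critical value for 4 samples. Chance gives about 1 in 20 such sets where the values chose neither the arrays nor the genes. The sets include those of the 20 slow fibre genes, which did choose the arrays. Most other genes were named for a large difference or a low p on the same arrays. The rate of 1 in 20 thus holds for neither. The flags describe the values and are no test.

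P1.2 replicate 2 was the array set apart in 11 of them, all in the slow-fibre-rich group. It stood at 13.13 in Myl2 (the other arrays at 14.82 to 14.94), 10.63 in Tnnc1 (12.74 to 13.16), 10.50 in Tnni1 (11.84 to 12.03), 14.63 in Tpm3 (16.02 to 16.3), 15.09 in Atp2a2 (16.1 to 16.31) and 17.06 in Myoz2 (17.67 to 17.79). Outside the 20 genes it stood at 14.66 in Idh2 (15.65 to 15.79), 19.68 in Myh2 (19.92 to 19.93), 14.45 in Cox7a1 (15.09 to 15.19) and 14.21 in Cox4i1 (15.1 to 15.16), and it was the high array in Mstn, at 13.97 (12.83 to 12.96). In Myh2 the other arrays of the group stood at the top of the scale, which narrows their range.

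P1.2 replicate 12 was the high array of the slow-fibre-rich group in Mt1 at 16.37 (14.37 to 14.41), in Col3a1 at 12.79 (10.29 to 10.7) and in Col1a1 at 10.57 (8.439 to 8.648). In the same group P0.3 replicate 11 was low in Dnajb4 at 12.00 (12.44 to 12.5). In the slow-fibre-poor group P0.3 replicate 5 was high in Casq2 at 7.66 (7.036 to 7.118) and P0.3 replicate 7 was low in Mybpc1 at 14.96 (16.8 to 17.16). P1.2 replicate 10 was high in Nr4a3 at 8.76 (6.962 to 7.237) and in Mrps36 at 10.89 (10.43 to 10.49), and P1.2 replicate 4 was high in Mbp at 8.29 (7.624 to 7.718).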

How the results depend on the processing

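No paired analysis was possible because the groups share no replicate number between the diets and the labels match no mice to each other. At an adjusted p under 0.05, 220 transcripts were higher and 94 lower. The slow level as a continuous term over all 12 arrays gave 431 higher and 215 lower, a filter to transcripts above the median signal 344 and 168, the methods' t-test on the same 8 arrays 12 and 5 (1134 and 883 at the study's criteria), and the 6 highest against the 6 lowest arrays 34 and 4. The P0.3 arrays alone gave 89 and 22, and the P1.2 arrays alone 0 and 0 (803 and 429 at the study's criteria, where the fit of all 8 arrays had 1456 and 1180). Leaving out each array gave 95 to 262 higher and 27 to 162 lower, and 1173 to 1628 and 862 to 1483 at the study's criteria. The counts were 126 and 31 without P1.2 replicate 12, 95 and 28 without P0.3 replicate 9, 141 and 27 without P0.3 replicate 11, 262 and 162 without P1.2 replicate 2, 129 and 54 without P0.3 replicate 7, 135 and 31 without P0.3 replicate 5, 138 and 56 without P1.2 replicate 4, and 224 and 70 without P1.2 replicate 10. The fits with fewer or other arrays have fewer or other samples; the causes of the other shifts were not tested. All 314 called transcripts kept their direction under every alternative run. Every alternative used arrays that also made the calls, so this follows largely from them. No diet term, quantile normalization, median centring, a robust and trended prior and array weights left both counts within 1.5 times. So did 1 row per symbol, the rounded table and adjustment over all transcripts. The choice of arrays by 4 markers or by diet picked the same 8 arrays. Its counts of 220 and 94 are thus those of the main fit and say nothing about another choice.

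Of 63 called genes named by the rules, 34 kept an adjusted p under 0.05 without each array in turn and 29 did not. Over the named genes, none changed sign, and the side of the threshold stayed in 1299 fits under the other alternatives and 610 with an array left out, was lost in 198 and 145, and was gained in 50 and 21. Of the list medians, 757 stayed within the spread between replicates and 34 moved beyond it. In Myh2 and other transcripts near 19.93 the top of the scale limits what can be seen, and in Myl6b, Pln and Tecrl the low signal.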
